A study of Mus musculus with 12 samples.

Results

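The 10 genes described here mark dendritic cells or are chemokines and receptors that dendritic cells use: Ccl17, Ccl22, Ccr7, Fscn1, Xcr1, Clec9a, Batf3, Flt3, Zbtb46 and Cd209a. They were chosen by symbol, with earlier results of these data known, and are 10 of 24346 genes in the tables. Shares over all genes given beside member counts are therefore a reference, not a test. All 10 passed the filter of at least 1 FPKM in at least 3 libraries (11808 genes passed). FPKM is a gene's fragment number corrected for the length of its transcript and for sequencing depth. The cells were sorted as tumour-associated macrophages, so these genes were read to see what dendritic cell transcripts the gates held.

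RNA was sequenced in bulk from cells of mice carrying the Arg1-RFP allele, in which red fluorescent protein reports transcription of the arginase 1 gene. Tumours were B16F10, a mouse melanoma line, or MC38, a mouse colon carcinoma line. Each of 4 groups had 3 libraries: B16F10 RFP+, B16F10 RFP-, MC38 RFP+ and MC38 RFP- cells. All groups shared the reporter allele and a gate for CD45, MHC class II, F4/80 and CD11b that removed cells with Ly6C, Ly6G, NK1.1, B220 or CD90.2. Dendritic cell surface proteins such as XCR1 or CD11c were not among the listed gate markers, and no untreated or tumour-free group was sequenced. The sources used here do not give strain, sex or age. The titles number the libraries 12, 11 and 3 in B16F10 and 1, 2 and 3 in MC38, with the same numbers in both gates.

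Conventional dendritic cells take up antigen in tissue and carry it to lymph nodes, where they start T cell responses. The cDC1 subset depends on the transcription factor BATF3 and cross-presents antigen to CD8 T cells, and the cDC2 subset mainly serves CD4 T cells. When dendritic cells of any subset mature they switch on CCR7, the receptor that guides them along CCL19 and CCL21 into lymphatics, and fascin (Fscn1), which bundles actin in their long processes. CCL17 and CCL22 both bind CCR4 and draw CCR4-bearing T cells, regulatory T cells among them. Mature dendritic cells make both, and macrophages can also make them when IL-4 acts through STAT6, so their transcripts do not name a cell type by themselves.

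Ccl22 and Ccl17 lie on the same strand of mouse chromosome 8 (GRCm38.p6, RefSeq), Ccl22 at chr8:94745684-94751388 and Ccl17 at chr8:94809380-94812038. They are 57991 bases apart, and Cx3cl1, the fractalkine gene, stands between them. Because these neighbours had much the same profile over the libraries, the 250 bases before each gene's start in the RefSeq promoter table are shown, with motif matches in capitals. The Ccl17 window, chr8:94810203-94810452 on the plus strand, lies inside the annotated span of the gene because RefSeq also has a longer transcript.
Ccl17: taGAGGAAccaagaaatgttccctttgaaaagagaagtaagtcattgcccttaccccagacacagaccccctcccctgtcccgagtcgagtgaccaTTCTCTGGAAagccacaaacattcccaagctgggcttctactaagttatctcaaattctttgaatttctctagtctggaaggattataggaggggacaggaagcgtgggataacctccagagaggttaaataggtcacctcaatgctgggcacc
Ccl22: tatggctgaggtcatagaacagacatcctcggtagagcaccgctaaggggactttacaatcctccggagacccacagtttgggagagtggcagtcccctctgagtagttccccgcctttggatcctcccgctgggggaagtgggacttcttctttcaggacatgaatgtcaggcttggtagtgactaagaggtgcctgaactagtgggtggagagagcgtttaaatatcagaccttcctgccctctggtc

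The second stretch of capitals in the Ccl17 window matches the site bound by STAT6 (TTC, any 4 bases, GAA), 154 bases before the start, and the first matches the PU.1 core GAGGAA, 248 bases before it. The Ccl22 window, chr8:94745434-94745683, held neither of these letters. It also held no interferon response element (GAAA, any 2 bases, GAAA), AP-1 site (TGANTCA) or kappaB consensus, all searched on both strands. Among 32851 RefSeq promoter windows cut to the same length, 5.85% held the STAT6 site, 23.3% the PU.1 core, 2.98% the interferon response element and 7.25% the kappaB consensus. Of the 9 genes with a window, Zbtb46 had an AP-1 match (a motif in 6.75% of windows) and Batf3 a PU.1 core match, and apart from Ccl17 the others had none of the 5 motifs. The Zbtb46 window, chr2:181424389-181424638 on the minus strand, lies inside the annotated span of that gene (chr2:181371009-181493262). Its AP-1 match is therefore within the gene by that annotation, not before its outermost start. These are matches of letters, not shown binding.

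The 12 libraries held 614875 to 815591 FPKM in total, and read totals are not used here. The value of 1 read, taken from the smallest values, was 3.02 to 3.62 times as high in B16F10 libraries as in the deepest one, from MC38, so low values are coarser in B16F10. Arg1, which the reporter reads, had 615 to 916 FPKM in B16F10 RFP+ cells against 56.2 to 125 in B16F10 RFP- cells, and 394 to 553 in MC38 RFP+ cells against 40.6 to 58.5 in MC38 RFP- cells. The macrophage core genes (16 genes such as Csf1r, Adgre1 and C1qa) summed to 12618 to 26025 FPKM in B16F10 RFP+, 10144 to 25755 in B16F10 RFP-, 62102 to 67706 in MC38 RFP+ and 43441 to 48465 in MC38 RFP- libraries. Melanocytic genes summed to 7771 to 10265 FPKM in the 6 B16F10 libraries over both gates, against 10.7 to 18.8 FPKM in the 6 MC38 libraries. The B16F10 RFP- library numbered 12 stood apart, with the highest total and the most genes listed at 0 (10597).

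None of the 10 genes was at 0 in any library. Their summed level was 16.6 to 25.1 FPKM in B16F10 RFP+ cells, 39.7 to 97.5 in B16F10 RFP- cells, 40.7 to 76.9 in MC38 RFP+ cells and 52.1 to 124 in MC38 RFP- cells. B16F10 RFP+ libraries were thus below all others. Set against the summed macrophage core genes of the same library, the 10 genes came to 0.0636% to 0.199% in B16F10 RFP+, 0.154% to 0.961% in B16F10 RFP-, 0.0602% to 0.122% in MC38 RFP+ and 0.109% to 0.255% in MC38 RFP- libraries. In bulk RNA, fewer cells of a type and less RNA per cell cannot be told apart, and that holds for every difference below.

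**Figure D1:**
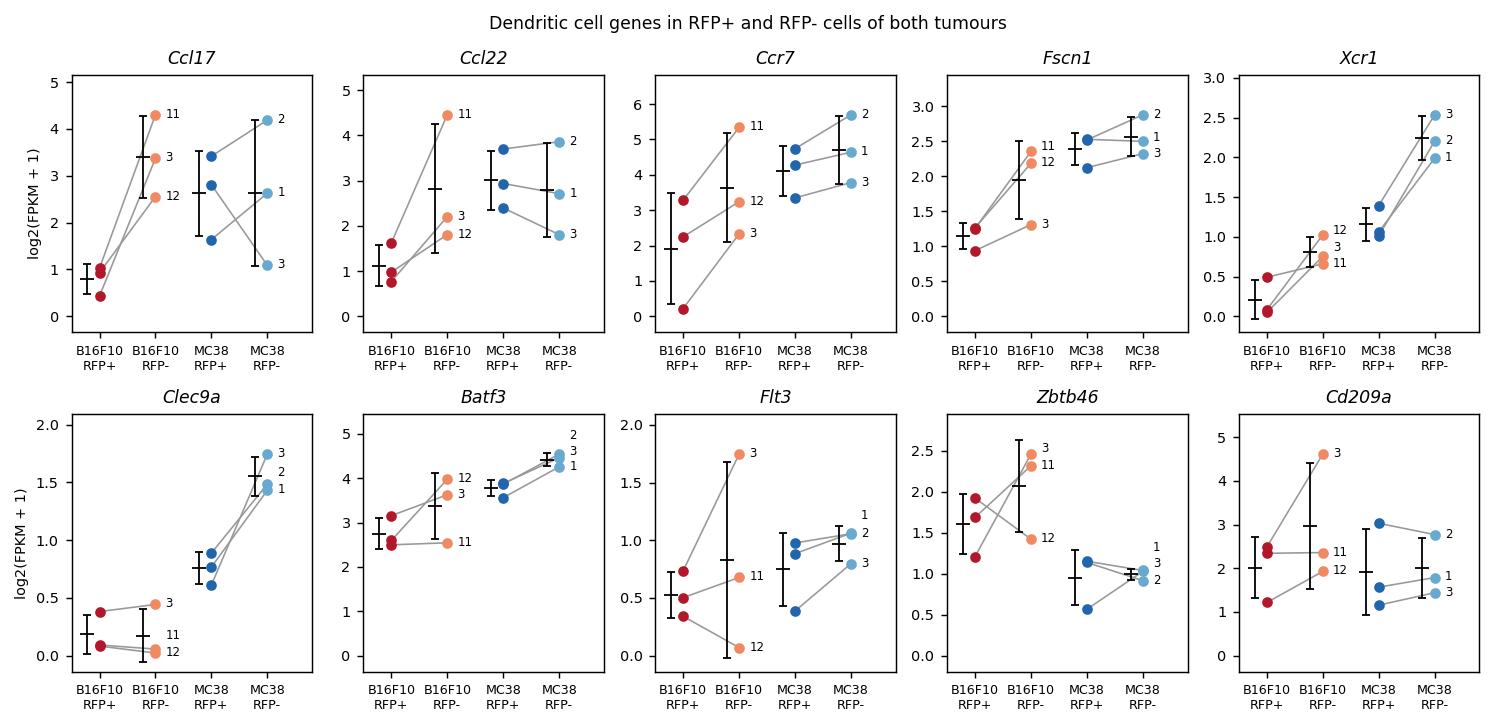
Level of each gene as log2(FPKM + 1) (y axis) in the 12 libraries by tumour and gate (x axis), with dots for libraries, grey lines joining libraries with the same title number (printed beside the RFP- dots) and black marks for the mean ± SD of 3 libraries. The lines for Ccr7, Xcr1 and Batf3 are lower at the RFP+ end in all 6 pairs, and Ccl17 and Ccl22 separate the gates in B16F10 with overlap in MC38.

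The 10 genes were mostly lower in RFP+ than in RFP- cells, with a median log2 difference of -0.72 in B16F10 and -0.20 in MC38, beside -0.01 and 0.00 over all genes tested. By pair of libraries with the same number, 26 of 30 differences in B16F10 and 23 of 30 in MC38 were below 0. The 30 are 10 genes in the same 3 pairs, so they are not independent. The share over all genes is not given here. In all 3 B16F10 pairs 7 members were lower in RFP+ cells (Ccl17, Ccl22, Ccr7, Xcr1, Cd209a, Batf3 and Fscn1), where 19.1% of all genes were. In all 3 MC38 pairs 5 were lower (Ccr7, Xcr1, Clec9a, Flt3 and Batf3), where 15.5% of all genes were. Ccr7, Xcr1 and Batf3 were lower in all 6 pairs, a pattern of 4.01% of genes. RFP+ values lay below RFP- values without overlap for 4 members in B16F10 (Ccl17, Ccl22, Xcr1 and Fscn1; 6.22% of genes) and for 3 in MC38 (Xcr1, Clec9a and Batf3; 4.98% of genes).

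By limma without pairing, 0 of the 10 passed the threshold (adjusted p under 0.05 over all genes) between the gates in B16F10, where 0.178% of genes did, and 0 of 10 in MC38, where 0.0254% did. At an unadjusted p under 0.05, 4 members in B16F10 were lower in RFP+ cells (5% of genes) and 2 in MC38 (1.14% of genes). For the mean of both tumours 1 passed, Xcr1 (0.449% of genes). With the title number as a replicate block 3 members fell in RFP+ cells in B16F10, Ccl17 (log2 difference -2.61), Ccl22 (-1.70) and Ccr7 (-1.72), beside 1.36% of genes. In MC38 the block left the count at 0 (0.44% of genes), and for the mean it gave 2, Ccr7 (-1.15) and Xcr1 (-0.85), beside 1.92% of genes. No member passed for the difference of the gate effects between the tumours, without the block (0% of genes) or with it (0.0339% of genes).

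**Figure D2:**
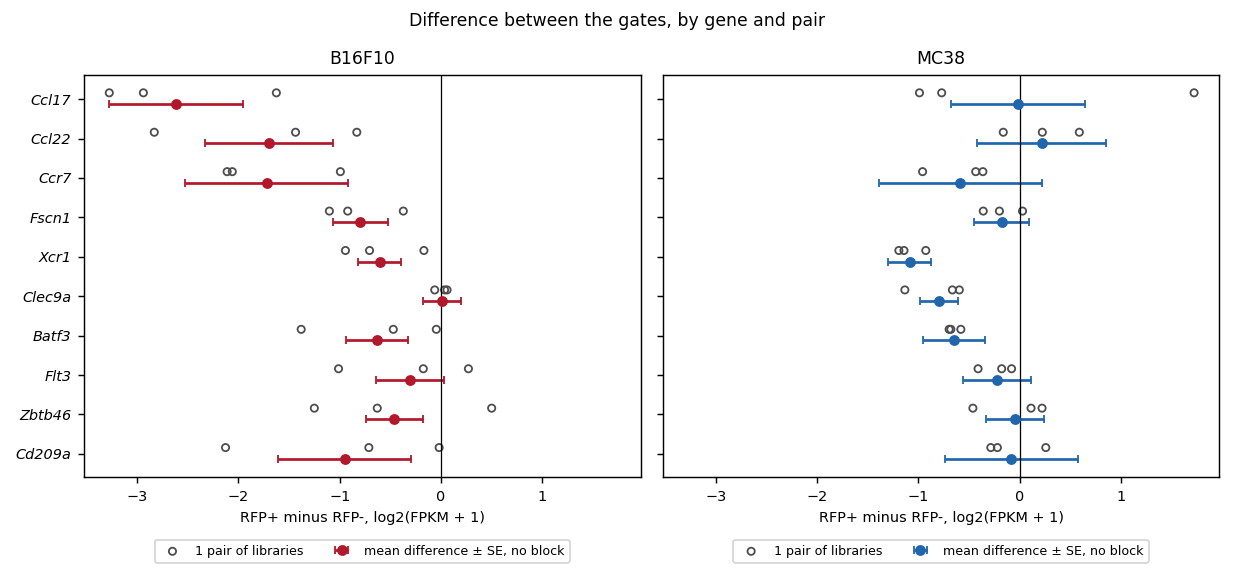
RFP+ minus RFP- difference in log2(FPKM + 1) (x axis) for each gene (y axis) in B16F10 (left) and MC38 (right); open circles are the 3 pairs of libraries and filled circles the mean ± SE of the fit without a block. In B16F10 the lowest mean is that of Ccl17 (-2.61), and in MC38 that of Xcr1 (-1.09).

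The chemokine genes Ccl17 and Ccl22, the migration receptor gene Ccr7 and the fascin gene Fscn1 are called mature genes here. Mature dendritic cells express them, but macrophages can also make Ccl17 and Ccl22, so the name does not give the cell source. In B16F10 all the mature genes were lower in RFP+ cells in every pair, and in MC38 only Ccr7 was.

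Ccl17 had 0.905, 1.04 and 0.350 FPKM in B16F10 RFP+ libraries 12, 11 and 3, against 4.88, 18.7 and 9.35 FPKM in the RFP- libraries with those numbers. The lowest RFP- value was more than 4 times the highest RFP+ value. The log2 difference was -2.61 ± 0.66 (SE), with an adjusted p of 0.217 without the block and 0.0226 with it. In MC38 Ccl17 had 2.11, 9.68 and 6.01 FPKM in RFP+ libraries 1, 2 and 3, against 5.18, 17.2 and 1.12 FPKM in RFP- libraries. These ranges overlapped, and pair 3 ran opposite to the others, leaving a difference of -0.01 ± 0.66. The gate effect differed between the tumours by -2.60 ± 0.94, which was not past the threshold (adjusted p = 0.895, and 0.474 with the block).

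Ccl22 had 0.965, 2.08 and 0.701 FPKM in B16F10 RFP+ libraries 12, 11 and 3, against 2.50, 20.9 and 3.60 FPKM in RFP- libraries. The gates did not overlap, but the RFP- mean of 8.998 ± 10.3 FPKM (SD, n = 3) rested mostly on library 11. The difference was -1.70 ± 0.63, with an adjusted p of 0.482, and of 0.0309 with the block. In MC38 the gates overlapped widely, at 6.64, 11.97 and 4.26 FPKM in RFP+ libraries 1, 2 and 3 against 5.55, 13.5 and 2.49 FPKM in RFP- libraries. Only pair 2 had the lower value in RFP+ cells, and the difference was 0.22 ± 0.63.

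Ccr7 was the most abundant of the 10 in 3 groups and the only one of the mature genes that ran lower in RFP+ cells in all 6 pairs. It had 3.74, 8.74 and 0.164 FPKM in B16F10 RFP+ libraries 12, 11 and 3, against 8.44, 39.6 and 4.03 FPKM in RFP- libraries. In MC38 it had 18.4, 25.7 and 9.18 FPKM in RFP+ libraries 1, 2 and 3, against 23.9, 50.9 and 12.8 FPKM in RFP- libraries. The groups overlapped because libraries of one number were high or low together in both gates. The difference was -1.72 in B16F10 and -0.59 in MC38, each ± 0.81 without the block and ± 0.23 with it. Averaged over both tumours it was -1.15, with an adjusted p of 0.698 without the block and 0.00462 with it.

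Those block calls depended on single pairs for the chemokines and less so for Ccr7. Without the B16F10 pair 12 all of Ccl17, Ccl22 and Ccr7 stayed past the threshold (adjusted p = 0.0308 for Ccl17). Without pair 11 Ccl17 (adjusted p = 0.0717) and Ccl22 (0.0630) were not past it, and without pair 3 neither these nor Ccr7 in B16F10 (0.0669) were. When any 1 MC38 pair was left out, Ccl17 stayed past it (0.00377 to 0.0434) and Ccl22 missed it (0.0597 to 0.0849). Averaged over both tumours, Ccr7 stayed past the threshold with the block whichever of the 6 pairs was left out, with adjusted p from 0.000669 to 0.0415.

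Fscn1 had 1.40, 1.39 and 0.916 FPKM in B16F10 RFP+ libraries 12, 11 and 3, against 3.55, 4.12 and 1.48 FPKM in RFP- libraries, without overlap. In MC38 it had 4.77, 4.74 and 3.36 FPKM in RFP+ libraries 1, 2 and 3, against 4.66, 6.36 and 4.01 FPKM in RFP- libraries, with overlap. The difference was -0.80 ± 0.27 in B16F10 (adjusted p = 0.432, with the block 0.104) and -0.18 ± 0.27 in MC38.

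Among the members, the cDC1 genes Xcr1, Clec9a and Batf3 were the ones whose gates did not overlap in MC38. This does not extend to the wider cDC1 list, which is read further below. Of its 12 genes past the filter, 8 were lower in MC38 RFP+ cells, with a median log2 difference of -0.04. Xcr1 encodes the receptor for the lymphocyte chemokine XCL1, Clec9a a lectin receptor that senses actin of dead cells, and Batf3 an AP-1 family transcription factor that cDC1 cells need and that other immune cells also express.

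Xcr1 had 0.0581, 0.406 and 0.0343 FPKM in B16F10 RFP+ libraries 12, 11 and 3, against 1.03, 0.580 and 0.686 FPKM in RFP- libraries. In MC38 it had 1.09, 1.02 and 1.63 FPKM in RFP+ libraries 1, 2 and 3, against 2.97, 3.61 and 4.80 FPKM in RFP- libraries. Of the 10 genes, Xcr1 alone had gates without overlap in both tumours. The difference was -0.61 ± 0.21 in B16F10 (adjusted p = 0.457) and -1.09 ± 0.21 in MC38 (0.112, and 0.0539 with the block). For the mean of both tumours Xcr1 fell by 0.85 ± 0.15 on the log2 scale in RFP+ cells, with an adjusted p of 0.0310, and of 0.0126 with the block.

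That call lay near the threshold: leaving out any of 8 of the 12 libraries raised the adjusted p to between 0.0548 and 0.104, a pseudocount of 0.1 gave 0.0628, and no filter gave 0.103. With the block, it was lost without B16F10 pair 3 or any MC38 pair (0.0641 to 0.0797). The log2 difference of the mean kept its sign in all of these fits.

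Clec9a was near the floor in B16F10, at 0.0586, 0.0655 and 0.302 FPKM in RFP+ libraries 12, 11 and 3, against 0.0154, 0.0397 and 0.359 FPKM in RFP- libraries. Both gates overlapped there, and the difference was 0.01 ± 0.19. In MC38 it had 0.701, 0.850 and 0.527 FPKM in RFP+ libraries 1, 2 and 3, against 1.70, 1.80 and 2.35 FPKM in RFP- libraries. All RFP+ values were below all RFP- values, and the difference was -0.80 ± 0.19 (adjusted p = 0.281, with the block 0.146). The gate effects of the 2 tumours differed by 0.81 ± 0.27, not past the threshold (adjusted p = 0.895).

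Batf3 was the best expressed cDC1 member. It had 5.05, 4.65 and 7.92 FPKM in B16F10 RFP+ libraries 12, 11 and 3, against 14.8, 4.83 and 11.4 FPKM in RFP- libraries. In MC38 it had 10.8, 13.6 and 13.8 FPKM in RFP+ libraries 1, 2 and 3, against 18.1, 22.4 and 21.1 FPKM in RFP- libraries. The gates overlapped in B16F10, through RFP- library 11, and not in MC38. The difference was alike in both tumours, -0.63 ± 0.30 in B16F10 and -0.65 ± 0.30 in MC38, and for the mean it was -0.64 ± 0.22 (adjusted p = 0.438, with the block 0.0856).

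Flt3, Zbtb46 and Cd209a separated the gates in neither tumour. Flt3 encodes the receptor for FLT3 ligand, on which conventional dendritic cells depend, Zbtb46 a transcription factor of the conventional lineage, and Cd209a a DC-SIGN-type lectin of cDC2 and monocyte-derived dendritic cells. Cd209a has close copies in the mouse genome, and the sources used here do not say how reads were shared between them.

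Flt3 had 0.266, 0.416 and 0.664 FPKM in B16F10 RFP+ libraries 12, 11 and 3, against 0.0490, 0.599 and 2.35 FPKM in RFP- libraries. It had 0.845, 0.967 and 0.307 FPKM in MC38 RFP+ libraries 1, 2 and 3, against 1.09, 1.08 and 0.737 FPKM in RFP- libraries. The difference was -0.30 ± 0.34 in B16F10 and -0.22 ± 0.34 in MC38, both within the spread.

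Zbtb46 had 2.78, 2.21 and 1.31 FPKM in B16F10 RFP+ libraries 12, 11 and 3, against 1.67, 3.97 and 4.49 FPKM in RFP- libraries. In MC38 all 6 values lay between 0.479 and 1.22 FPKM. The difference was -0.46 ± 0.29 in B16F10 and -0.04 ± 0.29 in MC38, and 3 of the 6 pairs were lower in RFP+ cells.

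Cd209a had 1.32, 4.07 and 4.60 FPKM in B16F10 RFP+ libraries 12, 11 and 3, against 2.80, 4.13 and 23.5 FPKM in RFP- libraries. In MC38 it had 1.96, 7.16 and 1.23 FPKM in RFP+ libraries 1, 2 and 3, against 2.45, 5.82 and 1.71 FPKM in RFP- libraries. The difference was -0.95 ± 0.66 in B16F10 and -0.08 ± 0.66 in MC38. Library 3 of B16F10 RFP- cells was highest in Cd209a, Flt3 and Zbtb46. It was also highest of all libraries in the neutrophil genes, of which 6 summed to 828 FPKM there, against 26.9 to 317 in the other B16F10 libraries and 45.8 to 50.7 in MC38. The part of neutrophil RNA in these values was not tested.

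Some of the 10 genes moved together from library to library. Pearson r over the 12 libraries, on log2(FPKM + 1) centred on each tumour, was 0.87 for Ccl17 with Ccl22, 0.86 for Ccl22 with Ccr7, 0.86 for Ccr7 with Fscn1 and 0.86 for Flt3 with Cd209a. Xcr1 reached 0.68 with Clec9a and 0.67 with Batf3. Between the mature, cDC1 and remaining genes r ran from -0.18 for Ccl22 with Clec9a to 0.57 for Ccl22 with Zbtb46, the upper end being about as high as the 0.54 of Clec9a with Batf3. Centred on the 4 groups, which takes out the gates as well, r was 0.80 for Ccl17 with Ccl22, 0.84 for Ccl22 with Ccr7, 0.81 for Ccr7 with Fscn1 and 0.87 for Flt3 with Cd209a, but -0.12 for Xcr1 with Clec9a and 0.26 for Xcr1 with Batf3. On that centring genes of different roles reached 0.70 for Clec9a with Flt3 and -0.71 for Ccr7 with Batf3, so the grouping of the cDC1 genes depended on the centring. That of the mature genes did so in part: r went from 0.70 to 0.38 for Ccl17 with Fscn1 and from 0.71 to 0.60 for Ccl17 with Ccr7. These are descriptions without a test, from libraries that share tumours, title numbers and depth within a tumour.

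**Figure D3:**
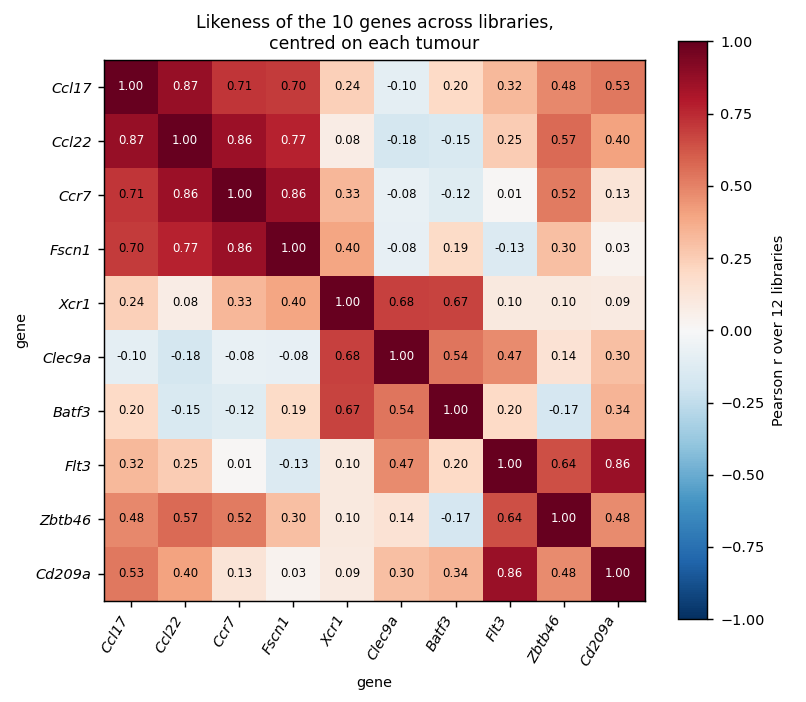
Pearson r between the 10 genes (both axes) over 12 libraries, on log2(FPKM + 1) centred on the mean of each tumour; red is positive and blue negative. Ccl17, Ccl22, Ccr7 and Fscn1 form a block with r from 0.70 to 0.87, Xcr1, Clec9a and Batf3 another from 0.54 to 0.68, and Flt3 and Cd209a reach 0.86.

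Ccl17, Ccl22 and Ccr7 followed the title number. Number 11 was highest for Ccl17, Ccl22 and Ccr7 in both gates of B16F10, and number 2 was highest for these 3 genes in both gates of MC38. Fscn1 had the same order at the top in RFP- cells, but in RFP+ cells its highest values were in B16F10 library 12 (1.40 FPKM, against 1.39 in 11) and MC38 library 1 (4.77 FPKM, against 4.74 in 2). The macrophage core genes were lowest in number 11 in both B16F10 gates, at 12618 FPKM for RFP+ and 10144 FPKM for RFP- cells, and their part in the levels of these genes was not tested.

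Other genes with the closest profile, by the same r among 10955 named protein-coding genes passing the filter, were Pigm (0.88), Tmem40 (0.86) and Il4i1 (0.86) for Ccl17, and Spint2 (0.96), Wipf2 (0.85) and Midn (0.84) for Ccl22. For Ccr7 they were Mylk (0.90), Ramp3 (0.90) and Kctd15 (0.87), and for Fscn1 Ramp3 (0.96), Adh7 (0.91) and Timmdc1 (0.89). Ramp3, a partner protein of calcitonin-family receptors, thus stood near both genes. Il4i1, a secreted amino acid oxidase, is also on the mature dendritic cell list.

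Xcr1 was closest to Tmem176a (0.96), Grap2 (0.93) and Herpud1 (0.91), Clec9a to Capn10 (0.86), Tespa1 (0.83) and Mapk14 (0.83), and Batf3 to Twf2 (0.95), Rtn1 (0.94) and Mettl17 (0.94). Tmem176a, a membrane protein gene, fell by 1.13 ± 0.18 on the log2 scale in RFP+ cells for the mean of both tumours (adjusted p = 0.0143). Flt3 was closest to Prss57 (0.91), Napsa (0.89) and Prpf4 (0.88), Cd209a to Ifitm1 (0.92), Napsa (0.91) and Lrg1 (0.87), and Zbtb46 to Cyp2r1 (0.86), Agpat6 (0.84) and Pard6g (0.83).

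Wider lists of dendritic cell genes were then read beside the 10. The mature, cDC1, shared and cDC2 lists hold members too, so their counts partly repeat the results above. Of the mature dendritic cell list (21 genes including Ccl17, Ccl22, Ccr7 and Fscn1), 19 passed the filter and 16 of these were lower in RFP+ cells in B16F10, with a median of -0.52. Over all 21 measured the median was -0.50. None passed the threshold without the block, and 7 fell with it: Ccr7, Ccl22, Ccl17, Il4i1, Nudt17, Traf1 and Ccl5. In MC38 12 of 19 were lower, the median was -0.02 and none passed in either fit. For the mean of both tumours Nudt17, a nudix hydrolase gene, fell by 0.85 ± 0.17 (adjusted p = 0.0474). With the block Ccr7, Il4i1 (-0.998, adjusted p = 0.0299), Nudt17 (-0.85, 0.0264) and Traf1 (-0.60, 0.0443), a TNF receptor adaptor, fell.

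Il4i1 had 0.892, 0.249 and 0.00201 FPKM in B16F10 RFP+ libraries 12, 11 and 3, against 1.67, 4.22 and 1.88 FPKM in RFP- libraries, without overlap. Of the more abundant genes of the list, Ccl5, a T cell chemokine gene, was lower in RFP+ cells without overlap in B16F10. It had 12.5 to 31.1 FPKM in RFP+ against 40.1 to 97.9 FPKM in RFP- cells there. In MC38 Ccl5 was lower in RFP+ cells in 0 of the 3 pairs. Its mean RFP- level in MC38 was 0.80 times its RFP+ level, with overlap. Cd83 overlapped between the gates in both tumours. Cd83, an activation marker also made by macrophages, had 49.7 to 200 FPKM in B16F10 RFP+ against 57.2 to 213 FPKM in RFP- cells. In MC38 Cd83 had 806 to 1699 FPKM in RFP+ against 887 to 1452 FPKM in RFP- cells.

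The cDC1 list includes the members Xcr1, Clec9a and Batf3. Of its 14 measured genes 12 passed the filter, with 8 lower in RFP+ cells in each tumour. All of these members were among the 8 in MC38, and Xcr1 and Batf3 were in B16F10. The list median was -0.34 in B16F10 and -0.04 in MC38, beside -0.01 and 0.00 over all genes. For the mean of both tumours Xcr1 alone passed without the block, and with it Naaa, a lysosomal amidase gene, also fell (-0.46, adjusted p = 0.0348). Naaa had 64.1 to 88.3 FPKM in MC38 RFP+ against 89.6 to 113 FPKM in RFP- cells. Irf8, a transcription factor of cDC1 cells that macrophages also use, had 21.4 to 49.2 FPKM in B16F10 RFP+ against 27.4 to 56.1 FPKM in RFP- cells, and 131 to 137 FPKM in MC38 RFP+ against 129 to 140 FPKM in RFP- cells.

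The list shared by conventional subsets, which includes Flt3 and Zbtb46, had 16 genes measured and 13 passing the filter. Of these, 10 in B16F10 and 8 in MC38 were lower in RFP+ cells (medians -0.36 and -0.11). The exception to that direction that passed was Id2, an inhibitor of helix-loop-helix factors, which with the block rose in RFP+ cells for the mean of both tumours (0.42, adjusted p = 0.0308). The cDC2 and monocyte-derived list, which includes Cd209a, had 11 genes measured and 8 passing the filter. Its medians were -0.24 in B16F10 and -0.17 in MC38. With the block 2 genes of this list moved in opposite directions in B16F10. The decoy receptor gene Il1r2 fell (-1.21, adjusted p = 0.000669), and the chemokine gene Ccl24 rose (2.19, adjusted p = 0.00283).

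Several genes that define other antigen-presenting or lymphoid cells were low. Siglech, which defines plasmacytoid dendritic cells, reached at most 0.581 FPKM in any library. The plasmacytoid list as a whole was not low. Its 10 genes summed to 27.7 to 44.7 FPKM in B16F10 RFP+ and 26.9 to 46.9 in B16F10 RFP- libraries. In MC38 they summed to 198 to 259 FPKM in RFP+ and 216 to 243 in RFP- libraries. Cd207, the Langerhans cell lectin gene, was at 0 in 5 of the 6 B16F10 libraries and had 0.541 to 0.982 FPKM in MC38 RFP+ against 1.69 to 3.65 FPKM in MC38 RFP- cells, without overlap. The 4 Langerhans list genes summed to 0.585 to 1.73 FPKM in B16F10 RFP+ and 0.679 to 2.21 in B16F10 RFP- libraries. In MC38 they summed to 12.9 to 18.2 FPKM in RFP+ and 13.0 to 21.3 in RFP- libraries. Cd3e reached at most 0.266 FPKM and Ncr1 at most 0.318, and Pax5 and Krt19 were listed at 0 in all libraries. The 6 B cell genes were not all low, summing to 6.39 to 8.94 FPKM in B16F10 RFP+, 5.88 to 19.0 in B16F10 RFP-, 16.96 to 24.3 in MC38 RFP+ and 21.2 to 35.2 in MC38 RFP- libraries. Cd79b, a B cell receptor chain gene with 2.96 to 33.9 FPKM, was lower in RFP+ cells in all 6 pairs without passing the threshold (-0.85 ± 0.41 in B16F10 and -0.35 ± 0.41 in MC38), and the part of B cell RNA in the members' differences was not tested. No gene of the plasmacytoid, Langerhans cell, T and NK cell, B cell, fibroblast and epithelial or melanocytic lists passed between the gates in either fit, with 4, 3, 4, 2, 3 and 7 genes past the filter. Of 6 neutrophil genes all were lower in B16F10 RFP+ cells, with a median of -0.53, and with the block Retnlg fell (-1.89, adjusted p = 0.0150). The part of neutrophil RNA in the B16F10 gate differences of the 10 genes was not tested.

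Antigen presentation genes, by contrast, were abundant. Of 11 MHC class II presentation genes 10 were lower in RFP+ cells in each tumour, with a median of -1.25 in B16F10 and -0.45 in MC38. In B16F10 4 fell without the block (H2-DMb1, H2-Eb1, H2-Ab1 and H2-Aa) and 6 with it, and none passed in MC38. H2-Ab1 had 584 to 806 FPKM in B16F10 RFP+ against 1381 to 3200 FPKM in RFP- cells. Macrophages and dendritic cells both express these genes, and the gate itself required MHC class II protein. The macrophage core list had medians on the other side of 0, 0.16 in B16F10 and 0.24 in MC38. Of its 16 genes 4 were lower in RFP+ cells in B16F10 and 3 in MC38. C1qa, C1qb and C1qc were lower in RFP+ cells in all 3 B16F10 pairs and in 1 MC38 pair. With the block Cd14 (0.60, adjusted p = 0.00571), Lyz2 (0.68), Itgam (0.43) and Ctsd (0.48) rose in RFP+ cells for the mean of both tumours.

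**Figure D4:**
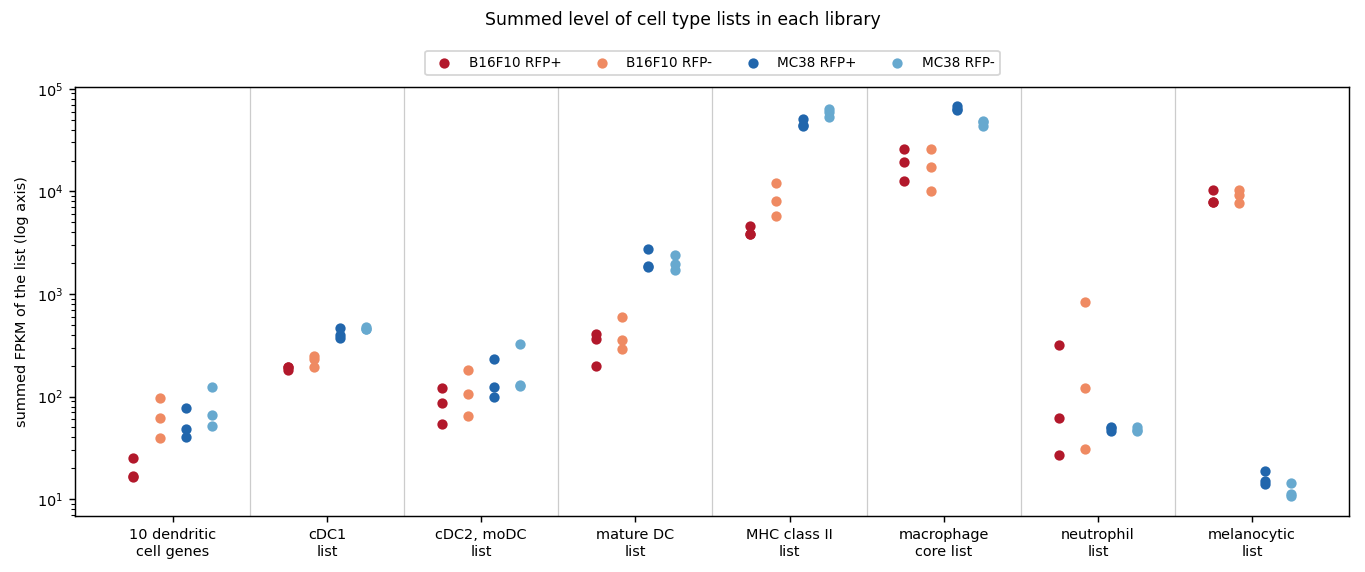
Summed FPKM of the 10 genes and of 7 marker lists (x axis) in each library on a log y axis, coloured by tumour and gate; DC is dendritic cell, moDC monocyte-derived dendritic cell. The 10 genes together sit between 16.6 and 124 FPKM, while the macrophage core list sits between 10144 and 67706 FPKM and the melanocytic list differs between the tumours. Sums rest on the most abundant genes of a list. In B16F10 RFP+ cells Cadm1 (mean 58.1 FPKM) and Snx22 (50.8) made much of the mean cDC1 sum of 190 FPKM. The mature list holds Cd83, which macrophages also make.

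The partners of these chemokines and receptors were mostly near 0 in the sorted cells. Ccr4, the receptor for CCL17 and CCL22, was at 0 in all B16F10 RFP+ libraries, at 0.0423 to 0.425 FPKM in B16F10 RFP- libraries and at most 0.107 FPKM in MC38. Ccl19 and Ccl21a, which encode the CCR7 ligands, were listed at 0 in all 12 libraries, and Xcl1, the XCR1 ligand gene, reached at most 0.501 FPKM. The scavenging receptor genes Ackr4 and Ackr2 reached at most 0.418 and 0.266 FPKM.

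Flt3l, the FLT3 ligand gene, had 1.42 to 3.00 FPKM in B16F10 RFP+ against 1.55 to 3.54 FPKM in RFP- cells, and 4.51 to 5.72 FPKM in MC38 RFP+ against 3.01 to 5.14 FPKM in RFP- cells. Ccrl2, a non-signalling chemerin receptor gene, was higher in RFP+ cells in all 6 pairs and with the block rose for the mean of both tumours (0.42, adjusted p = 0.0482). Of the locus neighbours, Cx3cl1 reached at most 1.80 FPKM, was lower in RFP+ cells in 3 of the 6 pairs and overlapped between the gates in both tumours. By group means its RFP- level was 3.45 times its RFP+ level in B16F10 and 0.877 times in MC38, beside 7.21 and 0.942 for Ccl22. Like Ccl17 and Ccl22, Cx3cl1 was lower in B16F10 than in MC38 RFP+ cells without overlap, and its likeness to them was not tested. Its receptor gene Cx3cr1 was lower in RFP+ cells in all 6 pairs, at 2.04 to 5.61 FPKM in B16F10 RFP+ against 5.28 to 9.38 FPKM in RFP- cells, without passing the threshold. Ciapin1 and Coq9, whose ends overlap so that reads there cannot be assigned without strand, had 10.8 to 93.9 FPKM and overlapped between the gates in both tumours.

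Genes that act upstream of Ccl17 and Ccl22 were read in both gates. On a list of 17 such genes, receptor chains for IL-4, GM-CSF and TSLP with STAT and NF-kappaB factors, 15 passed the filter and none passed the threshold between the gates without the block. Of the 15, 9 were lower in RFP+ cells in B16F10 (median -0.17) and 6 in MC38 (median 0.12). Without overlap, Relb, Nfkb2 and Stat5b were lower in B16F10 RFP+ cells and Tslp was higher, where 6.22% of all genes were lower. In MC38 Irf4 was lower without overlap, and Csf2rb2 and Klf4 were higher. Stat6 had 58.1 to 67.4 FPKM in B16F10 RFP+ against 61.1 to 85.3 FPKM in RFP- cells, and 88.0 to 94.0 FPKM in MC38 RFP+ against 86.6 to 90.2 FPKM in RFP- cells. With the block Klf4, a transcription factor gene linked to IL-4 responses in macrophages, rose in RFP+ cells for the mean of both tumours (0.72 ± 0.15, adjusted p = 0.0364), a direction opposite to that of Ccl17. Irf4, which cDC2 cells need, had at most 1.28 FPKM.

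The tumours were compared within each gate. As deposited, 7 of the 10 genes were lower in B16F10 than in MC38 RFP+ cells and passed the threshold (Ccl17, Ccl22, Ccr7, Fscn1, Xcr1, Clec9a and Batf3), where 55.2% of all genes passed in either direction. In RFP- cells Xcr1, Clec9a and Batf3 were lower in B16F10 and Zbtb46 was higher, 4 of 10, where 59.7% of all genes passed. In either direction, 7 of 10 and 4 of 10 were not far from those shares, but all 7 RFP+ calls were lower in B16F10. By direction, 2364 of 11808 genes passed as lower in B16F10 in RFP+ cells and 2584 in RFP- cells. So did 14 of 16 macrophage core genes in each gate. Of the MHC class II presentation genes, 11 of 11 did in RFP+ cells and 9 of 11 in RFP- cells. The 10 genes were not tested as a set, and the counts turned on the scaling, as given below. The 7 and the 3 lower genes were also those whose tumours did not overlap, as 24.8% of all genes did in that direction in RFP+ cells and 22.8% in RFP- cells. The RFP+ count fell to 3 without B16F10 RFP+ library 12, and to 3 without MC38 RFP+ library 2. The wider lists hold members too. In B16F10 RFP+ cells 14 of 19 mature dendritic cell genes and 9 of 12 cDC1 genes were lower past the threshold. On these lists 0 and 1 were higher. In RFP- cells 9 of 19 and 8 of 12 were lower, with 1 higher in each list.

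In RFP+ cells the largest differences were those of the mature genes, -2.20 ± 0.81 for Ccr7 (adjusted p = 0.0330), -1.89 ± 0.63 for Ccl22 (0.0221) and -1.83 ± 0.66 for Ccl17 (0.0317). In RFP- cells the same genes did not pass: Ccr7 differed by -1.07 ± 0.81, Ccl22 by 0.03 ± 0.63 and Ccl17 by 0.78 ± 0.66. Xcr1 was lower in B16F10 in both gates (-0.95 ± 0.21 in RFP+ and -1.43 ± 0.21 in RFP- cells), as was Clec9a (-0.57 ± 0.19 and -1.38 ± 0.19). Zbtb46 was the one gene higher in B16F10 without overlap in both gates, by 0.65 ± 0.29 in RFP+ (adjusted p = 0.0671) and 1.07 ± 0.29 in RFP- cells (0.00568). By mean level, B16F10 RFP+ cells were lowest of the 4 groups for Ccl17, Ccl22, Ccr7, Fscn1, Xcr1, Batf3 and Flt3, and MC38 RFP- cells highest for Ccr7, Fscn1, Xcr1, Clec9a and Batf3. In Ccl17, Ccl22, Ccr7 and Fscn1 the other 3 groups overlapped one another, and in Xcr1 and Batf3 so did B16F10 RFP- and MC38 RFP+ cells, narrowly in Xcr1.

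These tumour differences turned on how the libraries were scaled. The median of all genes was 0.23 higher in B16F10 in each gate, while the macrophage core list had medians of -2.03 in RFP+ and -1.65 in RFP- cells, and melanocytic RNA was present in B16F10 libraries of both gates. With libraries scaled to the macrophage core genes, 1 member passed in RFP+ and 4 in RFP- cells, counts for which the share of all genes is not given here. Batf3 turned to 0.53 and Flt3 to 0.38 in RFP+ cells, and Batf3 (0.52), Ccr7 (0.51), Fscn1 (0.72) and Flt3 (0.65) turned to higher in B16F10 RFP- cells. Xcr1 and Clec9a stayed lower in B16F10 in both gates under both scalings. What part of the tumour differences comes from melanocytic RNA was not tested.

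**Figure D5:**
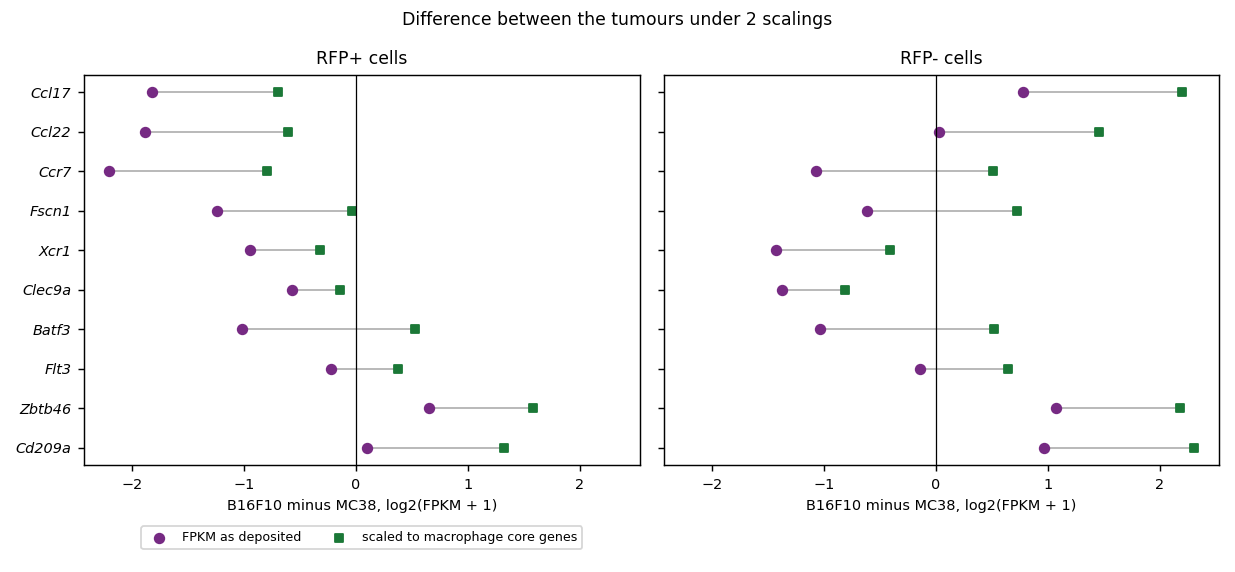
B16F10 minus MC38 difference in log2(FPKM + 1) (x axis) for each gene (y axis) in RFP+ (left) and RFP- cells (right), with circles for FPKM as deposited and squares after scaling each library to its macrophage core genes. Every square lies to the right of its circle, and Batf3 and Flt3 cross 0 in both gates.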

How the data were processed

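Each library was deposited by the authors as gene symbols with FPKM values, the unit per the file headers. RNA was taken with TRI Reagent, and SMART-Seq HT cDNA was made into Nextera XT libraries, per the labels' protocols. The submitters' processing notes name TopHat2 2.1.1, Bowtie2 2.2.8, SAMtools 0.1.18, Cuffdiff 2.2.1 and mm10. The sources used here do not give the annotation, the strand setting or the handling of reads shared by gene copies. As read totals are not used here, no model for counts was used.

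Repeated symbols were summed, and values were put on the scale log2(FPKM + 1), which understates the change of low genes. The filter kept genes reaching 1 FPKM in 3 or more libraries. Two-sided tests came from limma 3.58.1 in R 4.3.3, with lmFit and a trended eBayes on 4 group means (8 residual degrees of freedom). Benjamini-Hochberg adjustment ran over every gene kept, and an adjusted p under 0.05 passed. The procedure was first tested on simulated data. Python 3.11.15 with matplotlib 3.10.9 drew the plots.

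Per the design text there were 3 mice, and libraries are not tied to animals by any label, so p-values measure the spread between libraries, which may be technical. The title numbers stand in both gates. To check whether they pair libraries, deviations from group means were correlated over genes: r was 0.228 to 0.443 for the 6 pairs that share a number, and -0.306 to 0.0178 otherwise. As all 6 passed 0.1, the numbers were taken as pairs. The fit with the number as a replicate block (4 residual degrees of freedom) is given where it changes a call, such as Ccr7 in B16F10 (-1.72).

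All 10 members are described. List genes were named by the smallest adjusted p among those past the threshold in either fit, up to 4 a direction, with counts only for the tumour comparisons, and genes of like profile by the 3 highest r. Genes named otherwise (Arg1, Cd83, Ccl5, Cd79b, Irf8, Stat6, Irf4 and the defining markers at low level) were picked after their values were seen. The members and lists were chosen with earlier results of these data known. The list genes Trac and Ly6g had no row. Alternatives were other pseudocounts, filters, scalings, array weights, the compared groups alone, the block and each library left out. The block under macrophage core scaling and the block without each further pair were added after seeing the data.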

Additional observations from a re-analysis of the deposited data

How the results depend on the processing

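The 3 B16F10 calls of the gate comparison appeared with the replicate block (Ccr7 -1.72), with and without pair 12 (3 members each: Ccl17, Ccl22 and Ccr7). Array weights also gave 3, but these were Ccl17, Flt3 and Cd209a, and Ccl22 (adjusted p = 0.140) and Ccr7 (-0.97, 0.482) did not pass. No member passed there under the other settings that kept the unpaired fit. With the replicate block and scaling to the macrophage core genes, 7 members passed in B16F10, 0 in MC38 and 6 for the mean. The core genes were themselves mostly higher in RFP+ cells (medians 0.16 in B16F10 and 0.24 in MC38), so this scaling lowers RFP+ values against RFP- values for other genes. Shares of all genes passing under these settings are not given here, so these counts are not read as a result about the members. In MC38 array weights and the block without pair 12 gave 1 member. For the mean of both tumours the count was 0 with a pseudocount of 0.1, no filter, a filter of 5 FPKM or core scaling, 2 with the block, and 3 with array weights or with the block without pair 12. Leaving out 1 library, or 1 pair other than 12 with the block, gave 0 to 2 members in B16F10, 0 to 1 in MC38 and 0 to 3 for the mean. For the difference of the gate effects all settings gave 0. B16F10 against MC38 in RFP- cells gave 1 with the filter of 5 FPKM, which drops low members, and 7 with array weights. In RFP+ cells it gave 3 with a pseudocount of 5, 4 with no filter or the 5 FPKM filter, 1 with core scaling, and 3 to 8 with 1 library left out, the 3 being without B16F10 RFP+ library 12 or MC38 RFP+ library 2. Beyond the block, the cause of these shifts was not tested.

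Some log2 differences changed sign. Between the gates in B16F10, Clec9a turned to -0.036 with quantile normalization, -0.0065 with core scaling with or without the block, -0.20 with array weights and -0.013 with the block without pair 12. In MC38 Ccl17 was 0.080 with a pseudocount of 0.1, Ccl22 -0.0043 with core scaling with or without the block, and Zbtb46 0.0072 and Cd209a 0.059 with array weights. For the difference of the gate effects a pseudocount of 0.1 gave -0.40 for Xcr1, 0.23 for Flt3 and -0.010 for Batf3, which was -0.0038 with quantile normalization and -0.11 with array weights. Between the tumours in RFP- cells, Ccl22 was -0.12 with quantile normalization and -0.35 with array weights, and Flt3 was 0.59 with array weights. Core scaling gave 0.51 for Ccr7, 0.65 for Flt3, 0.52 for Batf3 and 0.72 for Fscn1. In RFP+ cells Cd209a was -0.17 with quantile normalization and -0.16 with array weights, and core scaling gave 0.38 for Flt3 and 0.53 for Batf3.

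With 1 library or pair left out, signs turned for Clec9a (-0.087 to 0.15) and Flt3 (-0.69 to 0.15) between the gates in B16F10. In MC38 they turned for Ccl17 (-0.88 to 0.76), Ccl22 (-0.28 to 0.75), Cd209a (-0.64 to 0.30) and Zbtb46 (-0.17 to 0.17). For the difference of the gate effects this held for Batf3 (-0.40 to 0.32) and Flt3 (-0.46 to 0.38), and between the tumours for Ccl22 (-0.79 to 0.56) and Flt3 (-0.60 to 0.24) in RFP- cells and Cd209a (-0.28 to 0.65) in RFP+ cells. The 3 libraries a group limit all of these values, and Clec9a, Flt3 and Xcr1 in B16F10 lie below 1 FPKM in most libraries, where a read weighs most.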
